A study of Mus musculus with 18 samples.

Results

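C/EBPα occupancy before induction and 10 min after induction was compared in 200-bp bins of the mouse genome (mm9, chromosomes 1 to 19). A bin was a member of the comparison when it held 8 or more C/EBPα ChIP-seq reads in either library, after 1 read per position and strand was kept and the deeper library was thinned to the depth of the other. This left 10874 member bins of 12361703 (0.0880%).

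The cells were C10 cells, 1 line derived from HAFTL pre-B cells that carries a fusion of C/EBPα with the hormone-binding part of the estrogen receptor, so all groups hold the transgene. Addition of β-Est moves the fusion into the nucleus and starts conversion into macrophage-like cells (iMΦ). The control protocol in the labels was 0.1% ethanol, and the 10 min sample was induced with β-Est at 100 nM in medium with IL-3 and CSF-1 (both at 10 nM), whereas the study's methods give another unit for β-Est. The 2 libraries compared are among 18 ChIP-seq libraries of 3 factors, PU.1, C/EBPβ and C/EBPα (hpi stands for hours post-induction), with 1 library per factor and time point, so no test between time points was possible and every interval covers counting error only.

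The library of 0 hpi was read on a GA IIx in reads of 36 bases and held 8651671 reads on these chromosomes. The library of 10 min was read on a HiSeq2000 in reads of 50 bases and held 24236183, of which 35.7% were kept. The distance between the strands was 93 bp at 0 hpi and 177 bp at 10 min. Time and sequencer therefore change together between these libraries and cannot be told apart. The labels name β-Est, IL-3 and CSF-1 for the induced sample only, so the parts of these 3 additions cannot be told apart either. The same HiSeq2000 was used for C/EBPα at 30 and 60 min, and the GA IIx for the 15 other libraries.

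C/EBPα is a basic leucine zipper factor that binds DNA as a dimer and directs granulocyte and macrophage differentiation. Its consensus is the palindrome-like TTGCNNAA, and with ATF-family partners it also binds composite C/EBP-CRE elements such as TGATGCAA. In myeloid cells it often binds close to PU.1, an ETS factor that B cells also express. RUNX1 and EBF1 are regulators of the pre-B cell, and FOS, ZFP36 and TNFAIP3 belong to the genes with which cells answer a stimulus within minutes.

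The sequences of 8 bins on which the results turn are given first. Those near Stap1, Pygl and Tnfaip3 had 0 to 2 reads at 0 hpi and many at 10 min, and that near Il6 had 10 and 71. The one near Runx1 had the most reads of all members at 10 min, and those near Zc3h12d and Cdkl4 were among the strongest in both libraries. The one in Ltbp1 was high at 0 hpi and nearly empty at 10 min. Each is the plus strand of mm9 (NCBIM37) from 5′ to 3′, in lower case, with capitals for every match on either strand to TTGCNNAA or TGATGCAA. Both consensuses share TTGC when read on the strand that carries it, and their matches can overlap.
Stap1, chr5:86507801-86508000: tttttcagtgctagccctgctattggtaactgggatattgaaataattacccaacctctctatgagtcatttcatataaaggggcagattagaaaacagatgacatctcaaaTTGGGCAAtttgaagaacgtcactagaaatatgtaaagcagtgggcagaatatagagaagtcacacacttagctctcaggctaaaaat
Pygl, chr12:71320201-71320400: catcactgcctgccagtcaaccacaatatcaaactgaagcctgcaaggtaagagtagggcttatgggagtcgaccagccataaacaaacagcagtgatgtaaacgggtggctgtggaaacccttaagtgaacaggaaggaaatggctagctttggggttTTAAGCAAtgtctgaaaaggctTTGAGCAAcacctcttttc
Tnfaip3, chr10:18773401-18773600: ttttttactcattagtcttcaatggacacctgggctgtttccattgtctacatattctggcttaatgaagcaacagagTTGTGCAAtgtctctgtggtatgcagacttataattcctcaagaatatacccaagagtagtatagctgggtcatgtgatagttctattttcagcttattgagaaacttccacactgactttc
Il6, chr5:30274801-30275000: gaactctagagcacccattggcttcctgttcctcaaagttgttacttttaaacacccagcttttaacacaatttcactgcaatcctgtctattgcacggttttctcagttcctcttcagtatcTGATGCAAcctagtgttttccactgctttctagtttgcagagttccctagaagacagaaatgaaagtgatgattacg
Runx1, chr16:92715801-92716000: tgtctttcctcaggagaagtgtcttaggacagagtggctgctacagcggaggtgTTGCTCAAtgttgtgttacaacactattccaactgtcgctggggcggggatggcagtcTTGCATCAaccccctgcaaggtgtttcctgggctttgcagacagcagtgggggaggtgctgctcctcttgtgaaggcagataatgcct
Zc3h12d, chr10:7561601-7561800: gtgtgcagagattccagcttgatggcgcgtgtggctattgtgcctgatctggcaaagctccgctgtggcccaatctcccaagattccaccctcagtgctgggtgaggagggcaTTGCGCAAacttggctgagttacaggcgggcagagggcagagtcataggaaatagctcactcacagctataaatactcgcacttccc
Cdkl4, chr17:80960201-80960400: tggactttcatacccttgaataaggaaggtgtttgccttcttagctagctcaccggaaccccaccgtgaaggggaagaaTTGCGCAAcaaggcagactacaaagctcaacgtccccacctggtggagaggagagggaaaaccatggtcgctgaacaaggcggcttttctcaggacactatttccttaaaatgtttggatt
Ltbp1, chr17:75528001-75528200: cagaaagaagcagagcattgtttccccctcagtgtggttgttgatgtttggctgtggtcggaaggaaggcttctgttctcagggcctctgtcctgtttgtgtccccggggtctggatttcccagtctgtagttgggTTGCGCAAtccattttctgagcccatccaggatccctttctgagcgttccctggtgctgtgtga
The bin near Il6 held the composite element and no TTGCNNAA, the bin near Runx1 held both, that in Pygl held TTGCNNAA at 2 positions, and the other 5 held it once. A match is a description of letters and does not show that the factor binds there.

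The members were mostly weak in at least 1 library. At 0 hpi 5403 bins reached 8 reads and at 10 min 7562 did, with 2091 bins in both lists, which are 38.7% of the first and 27.7% of the second. The median member had 7 reads at 0 hpi (quartiles 3 and 9) and 9 reads at 10 min (quartiles 5 and 15), where the mean bin of the genome had 0.723 in each library. All members together held 86374 reads at 0 hpi (0.998% of the library) and 128605 at 10 min (1.49%). At 10 min 1679 members reached 20 reads, against 589 at 0 hpi. Of bins just inside the limit, 2939 had exactly 8 reads in their higher library and 15.3% of these held TTGCNNAA. Of those just outside it, 7704 had exactly 7 reads and 11.7% held it. A total of 9800 members (90.1%) were focal, which means 4 or more times the mean density over 10 kb around the bin. With a mean bin of 0.723 reads, a bin of 8 reads is focal unless its surroundings are well above the mean. This share thus follows in large part from the limit of 8 reads.

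On a scale of log2((10 min reads + 1)/(0 hpi reads + 1)), the median over members was 0.78 (quartiles -1.0 and 1.81). At least 2-fold higher at 10 min were 4994 bins (45.9%), at least 2-fold lower were 2825 (26.0%), and 3055 (28.1%) lay within 2-fold. These shares describe the choice of bins as much as the cells, since a bin that reached 8 reads in 1 library only has to differ. Reads of the 10 min library that the thinning had left out were therefore counted at the same bins. With these 15584512 reads scaled to the same depth, the higher bins held 0.872 times the reads of the thinned draw and the lower bins 1.24 times, and 77.1% of the higher and 86.2% of the lower bins kept their class. The summed ratio of 10 min over 0 hpi was 4.78 in the higher bins with the thinned reads and 4.17 with those left out, and 0.228 and 0.283 in the lower bins. The reads of 0 hpi that chose the bins have no such second sample. The median log2 ratio was 0.41 with the reads left out, -0.85 with bins of 400 bp, where the same limit of 8 reads admitted 39166 bins, and 0 over the bins chosen by their reads at 3 hpi.

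**Figure D1:**
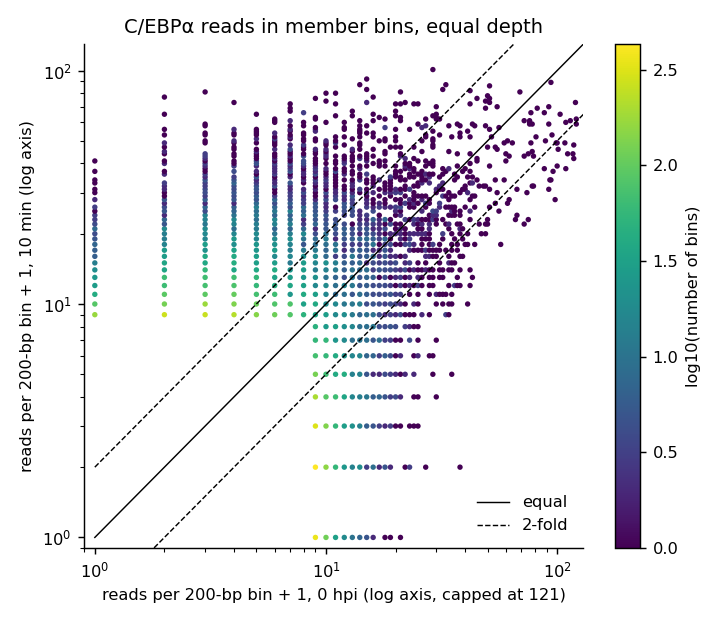
Reads per 200-bp member bin, plus 1, at 0 hpi (x axis) and at 10 min (y axis) after thinning to equal depth, both axes logarithmic, coloured by the number of bins at each pair of values. The solid line marks equal reads and the dashed lines 2-fold; the cloud above the upper dashed line holds 4994 bins and that below the lower one 2825, and the empty corner at the lower left is the limit of 8 reads.

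The share of higher bins differed with the strength of the bin, and not in 1 direction. Among the 4541 members whose higher library had 8 or 9 reads, 33.9% were higher at 10 min and 41.0% lower. Among the 1022 members with 25 to 49 reads, 62.9% were higher and 7.24% lower, with a median log2 ratio of 1.58. The share with TTGCNNAA increased over the same classes from 16.8% (15.7% to 17.9%) to 36.1% (33.2% to 39.1%), and it was 50.9% (44.1% to 57.6%) in the 224 members with 50 or more reads. In this strongest class 56.2% were higher and 13.8% lower, and TTGCNNAA was in 54.8% of the 126 higher bins and in 9.68% of the 31 lower bins. These 31 bins lay in 12 loci, 9 bins each near Gm10801 and Pgk2 without TTGCNNAA, and 28 were high in every library, so this share is over bins and not over separate loci. The order was the other way in the 3 classes below it, with 34.8% of the higher and 41.9% of the lower bins at 25 to 49 reads, 25.5% and 35.4% at 15 to 24, and 23.2% and 29.3% at 10 to 14. At 8 or 9 reads it was in 16.9% of the higher and 13.4% of the lower bins.

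Many of the strongest bins were high in every library. Of 71 bins with 100 or more reads over both libraries, 5 were higher and 21 lower at 10 min. Among the 71, 57 were at 5 or more times the mean bin in every one of the 18 libraries, and 20 of the 21 lower ones were among these, compared with 1578 of all 10874 members. The 21 lower bins lay in 5 loci, counting bins under 10 kb apart as 1 locus, and 18 of them in the 2 near Gm10801 (chr2:98502401-98507400) and Pgk2 (chr17:39980601-39985800). The bin with the most reads at 0 hpi, chr9:35112801-35113000, lay 23.5 kb upstream of Gm5614 and had 172 reads at 0 hpi, 61 at 10 min after thinning and 156 before it. It held no TTGCNNAA and was high for PU.1 and C/EBPβ at 0 hpi too (318 and 353 normalised reads). Normalised reads are reads per 10000000 of those kept on chromosomes 1 to 19, before any thinning. Without an input library or repeat marks in the reference, whether the bins high in every library are repeats was not tested. A bin has 400 positions over both strands, and 1 read was kept per position. A correction for this limit also used all 10 min reads, scaled to the same depth, in place of the thinned ones. With both changes 4560 of all members were higher and 2749 lower, so these counts do not show the correction alone. The part of the limit in the values of these 71 bins was not tested.

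GC content differed between the classes and between the libraries. The median GC content was 46.5% in the higher, 50.5% in the within-2-fold and 53.0% in the lower bins. In bins that were no members, the mean reads per bin went from 0.305 below 35% GC to 1.40 at 55% to 60% GC at 0 hpi, and from 0.462 to 0.881 at 10 min. Non-member bins of 50% to 60% GC had 2.93 times the mean reads of those of 30% to 40% GC at 0 hpi. The same ratio was 1.41 at 10 min, 1.36 at 30 min and 1.40 at 60 min, and between 2.72 and 3.85 in the 4 later C/EBPα libraries, all from the GA IIx. In the other libraries of the GA IIx it was 1.85 to 2.89 for PU.1 and 1.97 to 2.29 for C/EBPβ. Among members with 40% to 45% GC, 67.8% were higher and 10.0% lower at 10 min, and among those with 60% GC or more, 15.3% were higher and 48.6% lower. After scaling the 0 hpi reads of each bin by the background ratio of its GC class, 5411 bins were higher and 2235 lower. The part of GC content in the lower bins beyond this scaling was not tested.

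**Figure D2:**
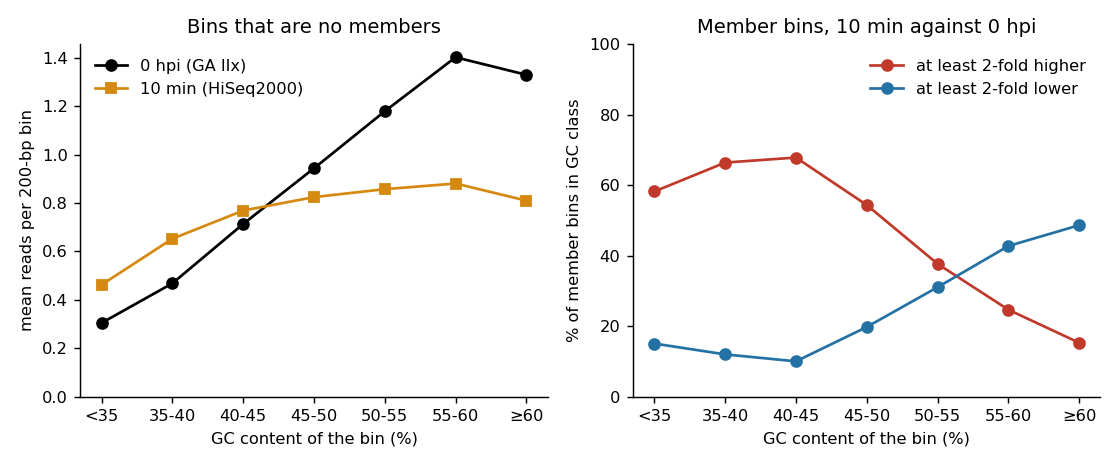
Left, mean reads per 200-bp bin outside the members (y axis) by GC content in % (x axis) at 0 hpi and 10 min; right, % of member bins that were at least 2-fold higher or lower at 10 min in each GC class. The 0 hpi line goes from 0.305 to 1.40 and the 10 min line from 0.462 to 0.881, both highest at 55% to 60% GC, and the share of higher bins goes from 67.8% at 40% to 45% GC to 15.3% at 60% GC or more.

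Position relative to genes followed the same order. Within 1 kb of the start of a protein-coding gene (GENCODE vM1) lay 7.39% of the higher bins (6.68% to 8.15%), 20.4% of those within 2-fold (19% to 21.9%), and 25.2% of the lower bins (23.6% to 26.9%), against 2.36% of all bins. The median distance to the nearest start was 23.6 kb for the higher and 10.1 kb for the lower bins, and 54.4 kb for all bins. Higher bins were in introns in 47.7% and between genes in 48.0%, lower bins in 42.9% and 42.4%, and all bins in 36.8% and 60.5%. The 1706 members within 1 kb of a start had a median GC content of 57.0% and a median log2 ratio of -0.58, and the 9168 farther away had 48.5% and 1.0, so that promoters and distal bins differed in GC content as they did in ratio. By chromosome, the share of higher bins went from 32.4% on chromosome 11 to 63.7% on chromosome 12.

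Consensus sequences were not used to choose the bins. TTGCNNAA was in 24.1% of the higher bins (22.9% to 25.3%), 27.0% of those within 2-fold (25.4% to 28.6%) and 19.4% of the lower bins (17.9% to 20.9%), against 9.28% of all bins and 6.19% to 7.93% of non-member bins weighted to the same GC content. All classes thus held the C/EBP letters 3.04 to 3.95 times as often as other bins of their GC content. The composite TGATGCAA was most frequent within 2-fold, with 6.22% (5.39% to 7.14%), was in 4.46% of the lower (3.73% to 5.29%) and 2.70% of the higher bins (2.27% to 3.19%), and was in 0.617% of all bins. Among the 357 members with 20 or more reads in both libraries it was in 11.2% (8.13% to 14.9%) and TTGCNNAA in 43.4% (38.2% to 48.7%).

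The letters of lineage factors were more frequent in the higher than in the lower bins. The PU.1 consensus GAGGAAGT was in 5.65% of the higher (5.02% to 6.32%) and 2.44% of the lower bins (1.91% to 3.08%), the RUNX consensus TGTGGTT in 11.3% (10.5% to 12.2%) and 5.42% (4.61% to 6.32%), and the EBF1 consensus TCCCNNGGG in 9.01% (8.23% to 9.84%) and 6.55% (5.66% to 7.52%). The bins within 2-fold held them in 4.91%, 7.40% and 9.73% (8.70% to 10.8% for EBF1), so the EBF1 letters were not most frequent in the higher class. All bins held them in 1.20%, 4.73% and 1.87%. Compared with other bins of the same GC content, higher bins held them 3.99, 2.47 and 3.18 times as often, and lower bins 1.64, 1.5 and 1.24 times. Members with 45% to 50% GC gave the same order of higher and lower bins. There GAGGAAGT was in 5.46% of 1557 higher bins (4.38% to 6.71%) and 1.94% of 567 lower bins (0.972% to 3.44%), TGTGGTT in 12.7% (11% to 14.4%) and 5.29% (3.6% to 7.47%), and TCCCNNGGG in 8.29% (6.96% to 9.77%) and 2.82% (1.62% to 4.54%). TTGCNNAA stood the other way in this GC window, with 23.1% of the higher (21.0% to 25.2%) and 30.2% of the lower bins (26.4% to 34.1%). These comparisons were not matched for the strength of the bins. Of the 2825 lower bins, 1863 had 8 or 9 reads in their higher library, against 1540 of the 4994 higher bins.

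The E-box CAGCTG was in 17.5% of the higher and 16.6% of the lower bins (7.37% of all bins), and the AP-1 consensus TGANTCA in 7.41% and 5.95% (5.96% of all bins). CCAAT, the NF-Y box, was in 21.0% and 19.4%, below the 29.1% of all bins. The GC box GGGCGG was in 5.01% of the higher and 11.8% of the lower bins, and in 3.53% and 3.00% of those with 45% to 50% GC. The CRE TGACGTCA was in 0.461% of the higher and 0.496% of the lower bins (23 and 14 bins), and in 0.111% of all bins. The estrogen response element, searched because the fusion carries the hormone-binding part of the receptor, was in 1 of 10872 members without unknown bases and in 0.0179% of all bins.

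**Figure D3:**
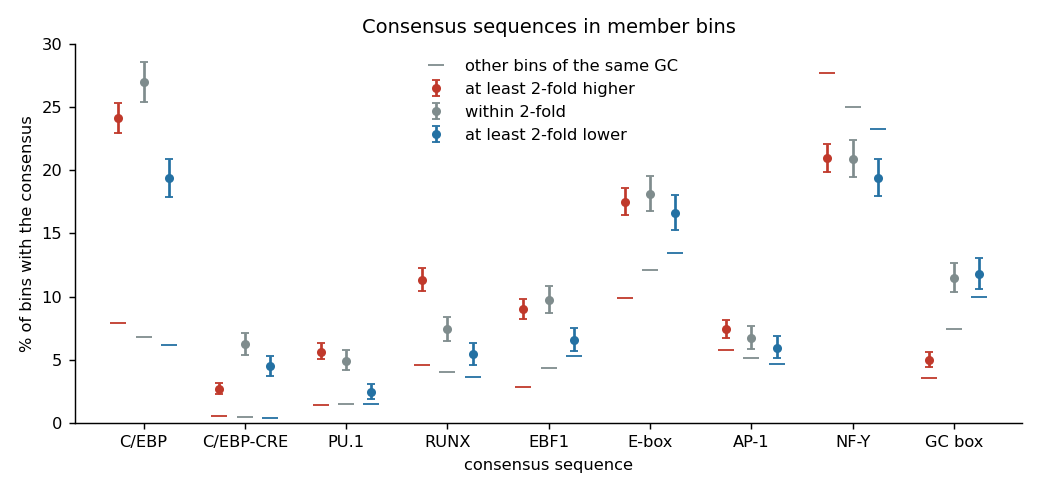
Share of member bins in % (y axis) that hold each consensus (x axis) in the higher, within-2-fold and lower class, with 95% Clopper-Pearson intervals; horizontal dashes give non-member bins weighted to the GC content of that class. PU.1, RUNX and EBF1 letters stand highest above their dashes in the higher bins (5.65%, 11.3% and 9.01%), and the C/EBP letters stand above them in all classes (24.1%, 27.0% and 19.4%).

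Libraries that did not enter the rule were read at the same bins, in normalised reads per bin, with a mean bin at 0.836. The higher bins had a median of 3.47 at 0 hpi and 13.2 at 10 min, and went on to 41.1 at 30 min, 36.3 at 60 min, 22.1 at 3 hpi, 12.0 at 12 hpi, 8.10 at 24 hpi and 5.15 at 48 hpi. The bins within 2-fold had 10.4 and 11.1 at 0 hpi and 10 min, 24.5 at 30 min, 23.1 at 3 hpi and 10.3 at 48 hpi. The lower bins had 10.4 at 0 hpi, 2.06 at 10 min, 2.37 at 30 min and 2.63 at 60 min, the 3 libraries from the HiSeq2000, and 6.46 at 3 hpi, 6.86 at 12 hpi, 5.40 at 24 hpi and 3.87 at 48 hpi. The libraries of the other factors, all from the GA IIx, had medians of 1.96 to 3.12 (PU.1) and 3.29 to 6.07 (C/EBPβ) in the lower bins. Between the 2 sets of C/EBPα libraries, those of 10 to 60 min and those of 0 hpi and from 3 hpi on, time and sequencer cannot be told apart. The values of 0 hpi and 10 min chose these bins and their classes, so only the other libraries are independent of the choice.

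**Figure D4:**
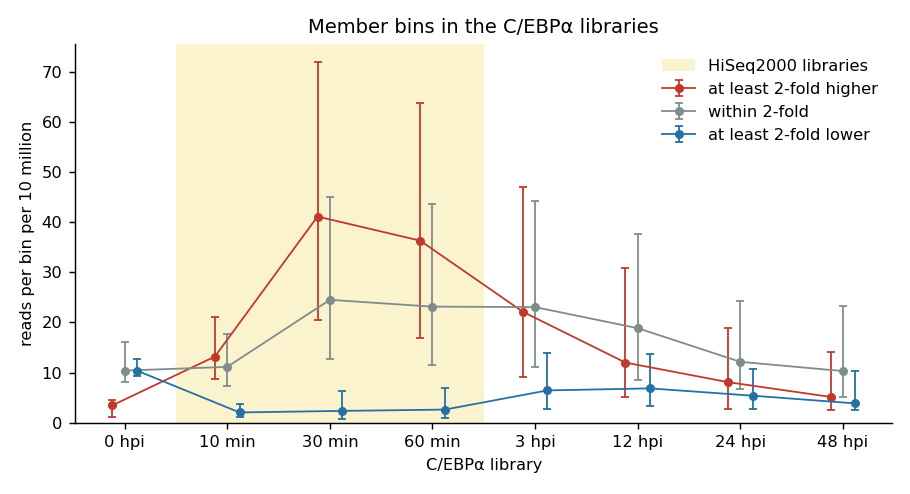
Median normalised reads per bin (y axis) with quartiles for the 3 classes of member bins in the 8 C/EBPα libraries (x axis). The shaded libraries came from the HiSeq2000. The higher bins reach 41.1 at 30 min, whereas the lower bins are at 2.06 to 2.63 in the shaded libraries and at 3.87 to 6.86 in the later ones.

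PU.1 at 0 hpi was read as a mark of bins with PU.1 signal before induction. At a limit of 3 reads and without an input library, it does not show that PU.1 occupied a bin. A total of 6274 members (57.7%) had 3 or more PU.1 reads at 0 hpi, which is at least 5 times the mean bin of that library, and 3.43% of all bins without unknown bases did. Of these, 50.0% were higher and 17.0% lower at 10 min. Of the 4600 members without it, 40.3% were higher and 38.2% lower. Both sets were close in GC content, with medians of 49.0% and 49.5%, but they were not matched for strength. Their medians of C/EBPα were 8.09 and 9.25 normalised reads at 0 hpi, and 12.0 and 6.60 at 10 min. The first had a median of 29.3 normalised reads of C/EBPα at 30 min and the second 11.1. TTGCNNAA was less frequent in the first, with 21.5% (20.5% to 22.6%) against 26.7% (25.4% to 28.0%). C/EBPβ at 0 hpi gave another picture. Of 6806 members at 5 or more times the mean of its library, 40.7% were higher and 23.5% lower. Of the 4068 others, 54.7% were higher and 30.1% lower. Members with this mark thus lay more often within 2-fold, with 35.8% against 15.2%. The 1578 members at 5 or more times the mean bin of every library all have this mark by definition. Of these, 901 lay within 2-fold. TTGCNNAA was in 26.4% of the members with it and in 19.1% of the others. The C/EBPβ library held 4169425 reads, so that 2 reads sufficed for this mark, which 6.10% of all bins had.

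Adjacent member bins were merged into 8364 sites, each with the values of its bin with the most reads, and 78.1% of the sites were 1 bin. Of the sites, 44.5% were at least 2-fold higher and 29.6% at least 2-fold lower at 10 min, and the median log2 ratio was 0.66. A site was given the gene with the nearest protein-coding start, which does not show that it acts on that gene. Of the focal sites, 1269 had 20 or more reads at 10 min and 364 at 0 hpi.

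The 12 focal sites with the largest ratio among those with 20 or more reads at 10 min had 0 to 2 reads at 0 hpi and 27 to 80 at 10 min, or 24.4 to 71.6 in the reads left out by the thinning. The bin with the largest value, chr4:38343801-38344000, lay 1053 kb from the start of 1700009N14Rik and had 0 and 40 reads (28.6 to 54.5). It was 13.3-fold higher against a floor of 3 reads, and at least 10.4-fold by its counting interval. Stap1, which encodes a signalling adaptor of B cells, had 1 read at 0 hpi and 76 at 10 min (59.9 to 95.1) in an intron 7.06 kb downstream of its start, a ratio of 76.0 (13.2 to 3041). Pygl, which encodes liver glycogen phosphorylase, had 0 and 30 reads 8.37 kb downstream of its start. It was 10.0-fold higher against a floor of 3 reads, and at least 7.64-fold by its counting interval. Irs2, an insulin receptor adaptor, had 1 and 64 reads at chr8:11098601-11098800, 90.2 kb upstream. Fhad1 had 2 and 80 reads in an intron at chr4:141508201-141508400, a ratio of 40 (10.7 to 336). Few reads at 0 hpi are part of how these 12 sites were chosen, so only the libraries from 30 min on describe them independently.

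The other members of this group were Rsbn1l with 0 and 36 reads, Pabpc2 with 0 and 33, Grip1 with 0 and 32, Dnajb6 with 0 and 29, Bre with 1 and 55, 2010111I01Rik with 0 and 27, and 1110003E01Rik with 1 and 52. All 12 had 98.8 to 192.9 normalised reads at 30 min. They then went apart. At 48 hpi Fhad1 was at 136.6 and Pabpc2 at 59.3, whereas Grip1 was at 2.58 and Bre at 5.15. PU.1 at 0 hpi was at 100.2 in the Dnajb6 bin and at 32 in the Rsbn1l bin, and between 1.45 and 14.5 in the other 10. TTGCNNAA was in 6 of the 12 bins (Stap1, Pabpc2, Grip1, Pygl, Bre and Fhad1).

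The 8 focal sites with the largest value in both libraries had 68 to 172 reads at 0 hpi and 60 to 88 at 10 min, and 7 of them held TTGCNNAA. Leaving aside the bin near Gm5614, the 7 log2 ratios lay between -0.66 and 0.23. Btbd19 had 93 (75.1 to 114) and 88 reads (70.6 to 108), a ratio of 0.946 (0.699 to 1.28). Zc3h12d, of a family of RNA-degrading immune regulators, had 68 and 80 reads in an intron, a ratio of 1.18 (0.841 to 1.65). Dclre1c, which encodes the nuclease Artemis of V(D)J recombination, had 75 and 60 reads 303 bp upstream of its start, a ratio of 0.8 (0.560 to 1.14). Rad23b had 91 and 69, Abhd11 76 and 65, and Rpia 71 and 60. Cdkl4 had 102 and 64 reads, and its ratio of 0.627 (0.452 to 0.866) was the only one of the 7 whose counting interval left out 1. A choice by the lower value of both libraries keeps out bins that were low in either, so ratios near 1 are part of it. C/EBPβ at 0 hpi, which did not enter the choice, was at 14.4 to 139.1 normalised reads in the 7 bins other than that near Gm5614, which was at 353. Except that near Rad23b, the 8 bins were at 5 or more times the mean bin in every one of the 18 libraries. High reads there were thus not particular to C/EBPβ.

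The 8 focal sites with the lowest ratio among those with 20 or more reads at 0 hpi had 20 to 37 reads at 0 hpi and 0 to 2 at 10 min. Rpl38 had 37 (26.1 to 51.0) and 1 reads at chr11:114517001-114517200, 12.7 kb upstream of this ribosomal protein gene, 37.0 times as many at 0 hpi (6.24 to 1500.4). This ratio rests on 1 read, and with the reads left out by the thinning Rpl38 had 4.44 at 10 min. Ltbp1, which encodes a TGF-β binding protein of the matrix, had 26 and 1 reads. Ccdc57 had 20 and 0 reads, 6.67-fold lower at 10 min against a floor of 3 reads, and at least 4.94-fold by its counting interval. Cpsf1, Stx16 and BC055111 had 22 and 1 each, Lrguk 21 and 1, and Gpr153 24 and 2. Few reads at 10 min are part of how these 8 sites were chosen. With the reads left out by the thinning they had 0.555 (Ltbp1) to 5.55 (Gpr153) at the same depth, with Stx16 at 5.00, Lrguk and BC055111 at 2.78, and Cpsf1 and Ccdc57 at 1.11. At 3 hpi (GA IIx) these 8 bins were at 10.1 to 37.8 normalised reads, and at 30 and 60 min (HiSeq2000) at 0.791 to 13.4. TTGCNNAA was in 4 of the 8 bins (Rpl38, Ltbp1, Lrguk and Gpr153) and TGATGCAA in that of BC055111. Their GC content was 49.0% to 69.0%.

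**Figure D5:**
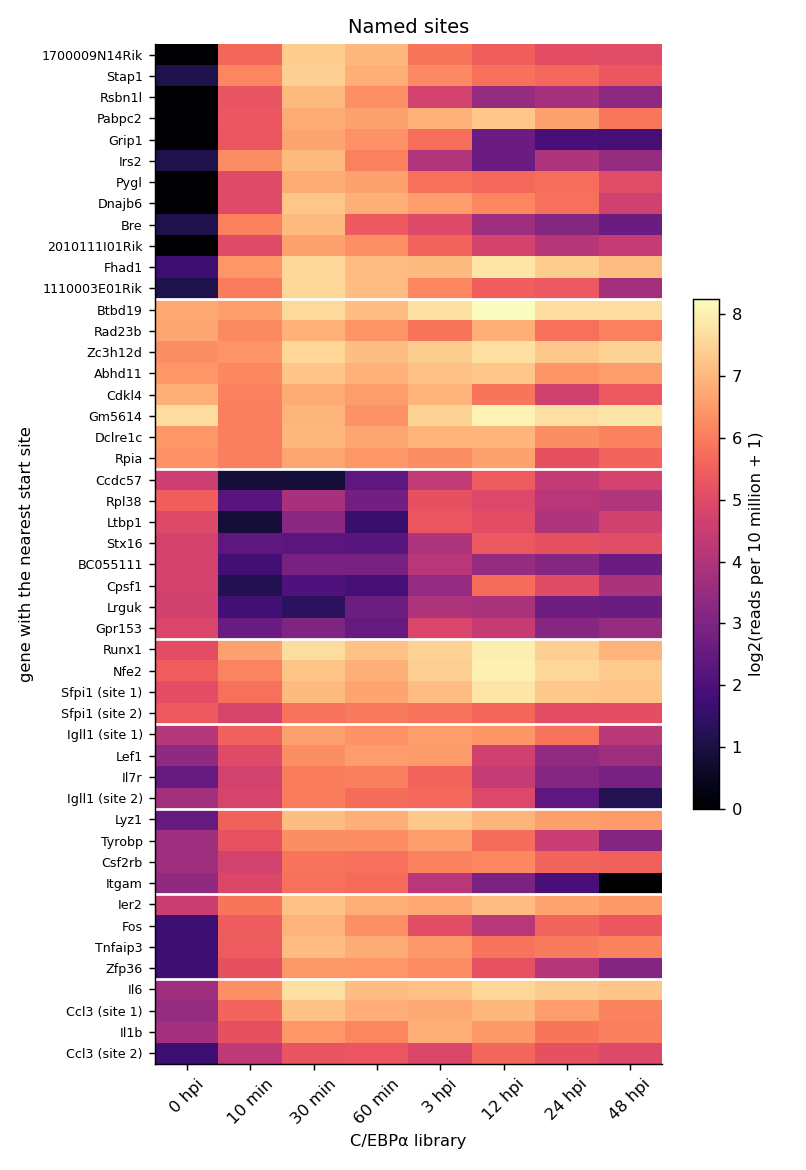
log2(reads per 10000000 + 1) (colour) in the 8 C/EBPα libraries (x axis) at the named bins (y axis, by nearest gene); white lines separate, from the top, the bins with the largest ratio, those strongest in both libraries, those with the lowest ratio, and 5 gene lists. The first 12 bins are dark at 0 hpi and bright at 30 min (98.8 to 192.9 reads per 10000000), and the 8 with the lowest ratio are dark at 10, 30 and 60 min.

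Genes of known roles were read through gene lists, with 44.5% higher and 29.6% lower sites as the background. The sites named in each list are up to 4 with the most reads at 10 min, so high values at 10 min are part of their choice, and the counts over all sites of a list stand beside them. Sites within 100 kb of the 14 C/EBP, PU.1 and myeloid regulators numbered 29 near 8 genes, of which 11 (37.9%) were higher and 4 (13.8%) lower, with a median log2 ratio of 0.61. The Runx1 bin, in an intron 18.3 kb upstream of the nearest start of this gene for a hematopoietic regulator, had 28 reads at 0 hpi (18.6 to 40.5) and 100 at 10 min (81.4 to 121.6), a ratio of 3.57 (2.33 to 5.64). With the reads left out by the thinning it had 78.8. It was at 205.6 normalised reads at 30 min (HiSeq2000), and at 248.6 at 12 hpi and 121.1 at 48 hpi (both GA IIx). Nfe2, a basic leucine zipper factor of the erythroid and megakaryocytic lineages, had 37 and 57 reads 66 bp upstream of its start, a ratio of 1.54 (1.0 to 2.40).

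Sfpi1, the gene of PU.1, had 4 sites over its locus. The upstream one, chr2:90923201-90923400, lay 13.6 kb before the promoter site and had 28 (18.6 to 40.5) and 49 reads (36.3 to 64.8), a ratio of 1.75 (1.08 to 2.89), and PU.1 itself was there at 110.4 normalised reads at 0 hpi. The promoter site had 3 and 9 reads, a ratio of 3.00 (0.749 to 17.2). The 2 sites behind the promoter had 8 and 2 reads, and 35 and 25 (ratio 0.714, 0.410 to 1.23). The upstream and the promoter site were at 133.6 and 41.9 normalised reads at 30 min. Downstream of Cebpb 8 sites lay 65.1 to 95.7 kb from its start. The largest at 0 hpi, chr2:167585601-167585800, had 29 and 23 reads, a ratio of 0.793 (0.438 to 1.42), and the site at chr2:167579401-167579600 had 9 and 22, a ratio of 2.44 (1.08 to 6.03), with 16.1 in the reads left out by the thinning. Another, chr2:167600801-167601000, had 3 and 18 reads, a ratio of 6.0 (1.75 to 31.8), and the other 5 had 2 to 8 reads at 0 hpi and 0 to 11 at 10 min. Both loci thus held bins with 29 to 35 reads at 0 hpi whose ratio interval included 1, beside bins with more reads at 10 min.

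Sites near immediate early and feedback genes numbered 55 near 17 of 21 genes, with 26 (47.3%) higher and 12 (21.8%) lower. Fos, an AP-1 subunit, had 2 and 42 reads at chr12:86809801-86810000, 4.94 kb upstream of its start, a ratio of 21.0 (5.46 to 179). Tnfaip3, the ubiquitin editor that restrains NF-κB, had 2 and 41 reads 38.0 kb upstream (20.5, 5.32 to 175). Zfp36, which destabilizes cytokine mRNAs, had 2 and 36 reads 5.03 kb upstream (18, 4.63 to 154). Ier2 had 19 and 51 reads, a ratio of 2.68 (1.56 to 4.81). With the reads left out by the thinning these 4 bins had 33.9, 32.2, 27.2 and 48.9 at the same depth. At 3 hpi they were at 32.3, 89.5, 75.6 and 107.0 normalised reads, against 2.31 at 0 hpi in the first 3 and 22.0 in Ier2.

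Sites near cytokine genes were few, 11 near 6 of 13 genes, of which 8 (72.7%) were higher and 2 (18.2%) lower, with a median log2 ratio of 1.93 and a median GC content of 46.0%. The Il6 bin shown above, 64.8 kb upstream of the start, had 10 (4.8 to 18.4) and 71 reads (55.5 to 89.6), a ratio of 7.10 (3.64 to 15.4), and PU.1 was there at 113.3 normalised reads at 0 hpi. Ccl3, a macrophage chemokine, had 9 and 45 reads 8.96 kb downstream (5.00, 2.41 to 11.6) and 2 and 20 reads 243 bp upstream of its start. Il1b had 11 and 29 reads 2.23 kb upstream, a ratio of 2.64 (1.28 to 5.85). The 4 bins were at 36.4 to 207.9 normalised reads at 30 min.

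Macrophage and myeloid genes had 21 sites near 15 of 28 genes, with 10 (47.6%) higher and 6 (28.6%) lower, close to the background. Lyz1, the lysozyme gene, had 4 and 41 reads 9.18 kb upstream of its start, a ratio of 10.2 (3.71 to 39.4), and was at 154.9 normalised reads at 3 hpi and 91.5 at 48 hpi. Tyrobp, the adaptor DAP12, had 10 and 36 reads 13.9 kb upstream (3.6, 1.75 to 8.13). Csf2rb, the shared receptor chain for IL-3, had 10 and 28 at its start (2.80, 1.32 to 6.46), with 17.8 in the reads left out. Itgam, which encodes CD11b, had 8 and 24 reads 15.45 kb upstream (3.00, 1.30 to 7.72). Its bin had 54.6 normalised reads at 30 min (HiSeq2000), and 17.5 at 3 hpi and 0 at 48 hpi (both GA IIx). At 48 hpi, in a library that did not choose them, Csf2rb was at 45.1 and Tyrobp at 7.73.

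B-lineage genes had 31 sites near 15 of 22 genes, with 15 (48.4%) higher and 4 (12.9%) lower. Igll1, the λ5 surrogate light chain, had 14 and 35 reads 1.42 kb upstream of its start (2.50, 1.31 to 5.03) and 11 and 21 at 222 bp upstream. Il7r, the IL-7 receptor chain, had 4 and 25 reads 37.5 kb downstream (6.25, 2.16 to 24.7), and Lef1 8 and 25 reads 95.9 kb upstream (3.13, 1.37 to 8.02). In all 4 bins the normalised reads were 63.3 to 98.8 at 30 min and 1.29 to 18 at 48 hpi, where the median over all higher bins was 41.1 and 5.15. The 30 min and 48 hpi libraries came from different sequencers.

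The lists chosen as controls held few sites. Estrogen-responsive genes had 4 sites near 3 of 8 genes (1 higher, 1 lower), namely Rara with 3 and 9 reads, Igfbp4 with 8 and 5, and Xbp1 with 8 and 3 at the named bins. Housekeeping genes had 5 sites near 4 of 10 genes (1 higher, 2 lower). The Actb bin, 22.5 kb upstream of its start, had 4 and 15 reads, and PU.1 was there at 106.0 normalised reads at 0 hpi. Rplp0 had 5 and 8 reads 24.4 kb upstream, Tbp 4 and 8, and Ppia 22 and 7 at its start. Of 12 genes of unrelated tissues, Umod alone had sites, with 5 and 12, 9 and 5, and 8 and 0 reads. Counting intervals of the ratios left out 1 at Actb (3.75, 1.19 to 15.5), at Ppia (0.318, 0.115 to 0.771) and at the Umod bin with 8 and 0 reads. This Umod bin was 2.67-fold lower at 10 min against a floor of 3 reads, and at least 1.71-fold by its interval. It had 0.922 normalised reads at 3 hpi. The bins of Actb and Ppia and this Umod bin reached 8 reads in 1 library only. Such a choice favours a difference, and the intervals do not cover it. The intervals included 1 at the other 7 of these bins, such as Rara (3.00, 0.749 to 17.2) and the Umod bin with 5 and 12 reads (2.40, 0.787 to 8.70). With the reads left out by the thinning, Rara had 4.44 and the Umod bin with 5 and 12 reads had 5.55 at 10 min. Rplp0 had 17.2, which put it past 2-fold.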

How the data were processed

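Reads had been aligned by the authors to mm9 (ELAND or Bowtie, no mismatch allowed), and identical reads and those without a unique position had been removed. They deposited every remaining read as a line of chromosome, position and strand, so the reads in a bin are a raw count, and neither an input library nor a normalization enters it. The aligner of each library is not given in the sources used here. From these reads, 1 per position and strand was kept (0.153% of the 0 hpi reads were removed, and none at 10 min), 5′ ends were moved 75 bp inward, the 10 min library was thinned once with a fixed seed, and reads were counted in 200-bp bins with Python 3.11.15, NumPy 2.4.6 and SciPy 1.17.1. Counting and the log2 ratio were tested on simulated data. With 1 library per time point a bin was called at a fixed 2-fold, with a pseudocount of 1 and no p-value. Intervals of 95% were exact Poisson for counts, exact conditional for ratios and Clopper-Pearson for shares.

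Sites were named by a rule: the 12 focal sites with the largest ratio at 20 or more reads at 10 min, the 8 with the lowest ratio at 20 or more reads at 0 hpi, the 8 with the largest lower value, up to 4 per gene list by 10 min reads, and the sites of the Sfpi1 and Cebpb windows. The comparison, the lists and the consensus sequences were chosen with earlier results of these data known. Of the list genes, 5 had no protein-coding start on these chromosomes in GENCODE vM1. Consensus sequences were searched on both strands of NCBIM37, whose build is mm9. Chromosomes X and Y were not used here.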

Additional observations from a re-analysis of the deposited data

How the results depend on the processing

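Of 14 other settings listed for these results, 13 were run and the one on repeats was not, since the reference holds no lower-case letters; 3 more (GC content, the limit of 1 read per position, and the reads left out by the thinning) were chosen after seeing the data. No paired analysis was possible because there was 1 library per time point. With 12 or more reads 4657 bins were compared, 2713 higher and 545 lower, with a median log2 ratio of 1.32 and TTGCNNAA in 28.2% of the higher bins. Bins of 400 bp, at the same limit of 8 reads, gave 39166 bins, 9978 higher and 18465 lower, and turned the median to -0.85. Bins chosen by 8 or more reads at 30 min numbered 24257, 10078 higher, with a median of 0.58, and those chosen at 3 hpi numbered 36249, 10066 higher and 8653 lower, with a median of 0 and TTGCNNAA in 27.0% of the higher bins. The cause was not tested. The median was 0.46 with all 10 min reads scaled, 0.41 with the reads left out by the thinning and 0.87 over focal bins. It was 0.65 with a pseudocount of 3 and 0.99 after GC scaling. With correction for 1 read per position, run on all 10 min reads scaled, it was 0.63. TTGCNNAA was in 26.5% of the higher bins with all reads scaled, in 25.9% with the reads left out and in 20.4% with reads not moved. The other 51 of 77 values stayed within 1.5 times the count or within the interval. Among 68 named bins, 20 crossed 2-fold under some alternative (with reads not moved, the bins of Ier2, Itgam, Lef1, the farther of Igll1, and 1 each of Cebpb, Sfpi1 and Umod fell below it), and 1 of the 49 with a 2-fold difference lost its sign, the Umod bin with 5 and 12 reads, whose log2 ratio was 0 in another random draw. Of the 19 named bins within 2-fold, 10 went to 0 or to the other sign under some alternative, among them Zc3h12d, Btbd19 and 2 of Cebpb, so no direction is given by their ratios. At this depth a bin at the limit of 8 reads has a counting interval of 3.45 to 15.8, and the ratio of 3 to 8 reads one that includes 1 (0.0641 to 1.56 at Xbp1), so even some differences over 2-fold were not detectable there.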
